A study of Homo sapiens with 47 samples.

Results

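The comparison set 2 kinds of altered 451Lu melanoma cells directly against each other by ATAC-seq: cells carrying a short hairpin RNA against p150 (shp150), and cells made to over-express c-JUN and c-FOS, 2 components of AP-1 (AP1). Each group had 2 libraries, and the 2 libraries each of NT control cells (NT) and of vector cells (vector) served as references. These 8 libraries are 8 of the 47 samples of the series and 8 of its 20 ATAC-seq samples. The groups were chosen by their labels and not by a measured value. All 4 groups share the 451Lu background, and none of them is labelled as resistant to a drug. The series as a whole concerns resistance of melanoma cells to the BRAF inhibitor vemurafenib. The labels do not name the promoters, the hairpin sequence, the meaning of NT, the transduction scheme or the time of harvest, and they do not say whether replicates came from separate cultures. The NT cells were read as the reference of the hairpin cells and the vector cells as that of the c-JUN and c-FOS cells, as the pairs of names give them. No library of RNA was labelled for these 4 groups, so the level of p150, c-JUN or c-FOS in them was not checked here.

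ATAC-seq uses the Tn5 transposase to cut DNA where it is not wrapped tightly by nucleosomes, so that piles of cuts, called as peaks, mark open promoters and enhancers. p150 is the usual name of the large subunit of CAF-1, the chaperone that places histones H3 and H4 onto newly copied DNA. Loss of CAF-1 is known in other cells to loosen chromatin and to ease changes of cell state. AP-1 is a dimer of JUN and FOS family proteins that binds a short palindromic motif, mostly in enhancers, and is active downstream of the MAP kinase pathway that BRAF feeds. The direct comparison asks at which regions the 2 alterations leave chromatin in different states, and the controls show which of the 2 groups departs from its own reference.

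Each deposited list holds the peaks of 1 library with a score per peak given by the authors' peak caller. The score is the authors' value and served only to rank peaks within a list. It carries no sequencing depth, which is unknown here. The shp150 lists held 43913 and 42898 peaks, the AP1 lists 50194 and 55840, the NT lists 55609 and 53419 and the vector lists 56824 and 54014. The hairpin lists were the shortest of the 8, and the lists of the 3 other groups overlapped in length. Covered sequence came to 18.3 and 18.1 Mb in shp150, 24.0 and 27.3 Mb in AP1, 26.9 and 24.0 Mb in NT and 28.4 and 26.4 Mb in vector. Lists of shp150 thus averaged 18.2 ± 0.199 Mb and those of AP1 25.6 ± 2.31 Mb (SD, n = 2 each; exact permutation test, two-sided, p = 0.333). With 2 libraries against 2 there are 3 splits, and 0.333 is the smallest p that this design allows, so no difference between groups can pass a threshold of 0.05. Median peak width was 364 and 367 bp in shp150 against 420 and 426 bp in AP1, a gap wider than the difference between replicates. How far the number and width of peaks follow depth was not tested.

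Because the lists differed in length, each was limited to its 42898 best-scoring peaks, the length of the shortest of the 8. The peaks of the 4 altered libraries were merged into 61208 regions on chromosomes 1 to 22 and X of hg19. A library counted as calling a region if any kept peak of it shared 1 bp or more with that region. A region was hairpin-only when called in both shp150 and neither AP1 library, and AP-1-only in the reverse case. The lowest score kept was 3.03 and 2.02 in shp150, 5.28 and 6.17 in AP1, 6.47 and 5.34 in NT and 6.59 and 6.08 in vector. The highest score left out was equal to the lowest kept, to 3 digits, in the 7 lists that lost peaks, so peaks at this limit differ little from those just past it.

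Most open regions did not separate the 2 alterations. All 4 libraries called 26471 of the 61208 regions (43.2%), and another large share was called in 1 library of a pair only, namely 18772 regions (30.7%) for shp150 and 14033 (22.9%) for AP1. Hairpin-only regions numbered 2590, which is 4.23% of the regions compared and 0.982 Mb. AP-1-only regions numbered 3411, which is 5.57% and 1.51 Mb. Disagreement between the 2 hairpin libraries therefore touched more regions than the contrast between the groups.

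The same rule was then applied to the references. NT against vector gave 3577 regions called in both NT and neither vector library (5.99% of 59687) and 3514 in the reverse case (5.89%). The 2 controls thus differed at 7091 regions, 1.18 times the 6001 regions that separated hairpin from c-JUN and c-FOS cells. Leaving out a library changed this ratio, since the rule then loosens for the group left with 1. With 1 shp150 or AP1 library left out, so that a single library calls its group, the direct total was 11167 to 13813 and the controls differed at 0.513 to 0.635 times as many regions. With 1 NT or vector library left out the ratio was 2.02 to 2.21. With a score of at least 5 in place of equal length it was 0.943, and with 50% of a region covered 0.967. A count of this kind also falls when replicates disagree, and replicates of shp150 did so most: 1 library of a pair called 18772 regions for shp150 as given above, against 15068 (25.2% of 59687) for NT and 13277 (22.2%) for vector. Against their own controls the altered cells differed at fewer regions. shp150 against NT gave 1340 regions called in shp150 only (2.24% of 59823) and 2030 in NT only (3.39%). AP1 against vector gave 1285 called in AP1 only (2.30% of 55967) and 1429 in vector only (2.55%). These 4 comparisons share libraries, so their counts are set side by side as values. The labels name no batch, and what separates the NT from the vector libraries cannot be told apart from what separates hairpin from c-JUN and c-FOS cells by these lists alone.

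**Figure D1:**
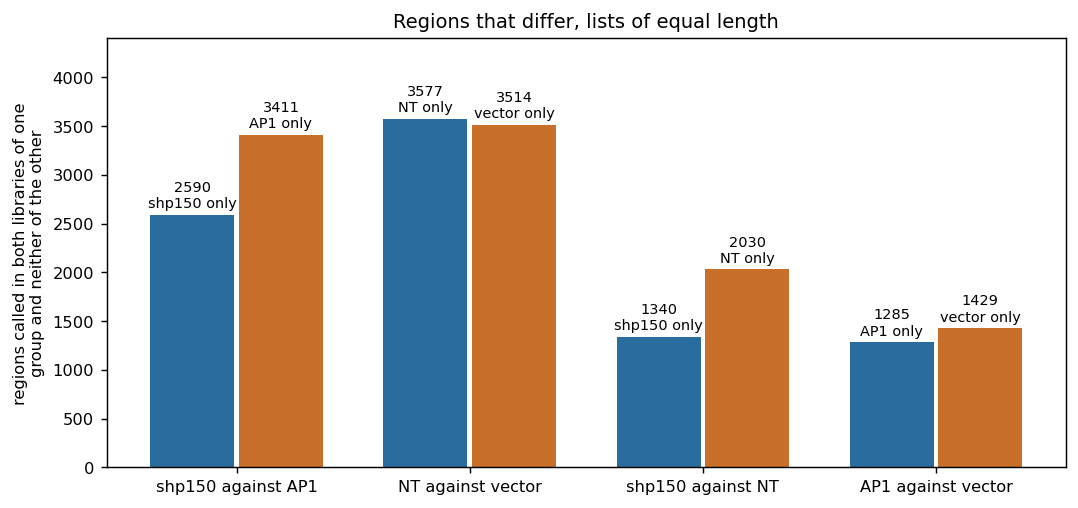
The bars give the number of regions called in both libraries of one group and neither of the other, for each of 4 pairs of groups, in lists of 42898 peaks. The pair of controls gave 3577 and 3514 regions, more in either direction than the direct comparison with 2590 and 3411, and either altered group against its own control gave fewer.

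Overlap in bases over all peaks of the equal-length lists placed the pairs differently. The Jaccard index, the bases shared by 2 lists divided by the bases in either, was 0.530 between the shp150 replicates. Between shp150 and NT libraries it was 0.546 to 0.550, slightly above the value for the replicates of shp150 themselves. In full lists it was 0.517 to 0.530 between shp150 and NT, on either side of the 0.528 between the shp150 replicates. At equal length it was 0.507 to 0.520 between shp150 and AP1 and 0.493 to 0.509 between shp150 and vector. The AP1 replicates reached 0.634, and AP1 and vector libraries lay in the same range, at 0.630 to 0.646. AP1 and NT libraries overlapped less, at 0.561 to 0.583, as did NT and vector libraries, at 0.552 to 0.576. By this measure the 2 controls overlapped each other more than the 2 altered groups did. Each altered library overlapped its own control about as much as its replicate. At equal length the shp150 lists covered 18.1 Mb each, against 21.9 and 23.5 Mb in AP1, 23.2 and 21.1 Mb in NT and 24.3 and 23.2 Mb in vector. How far this narrower cover lowered the overlap of each pair with shp150 was not tested.

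**Figure D2:**
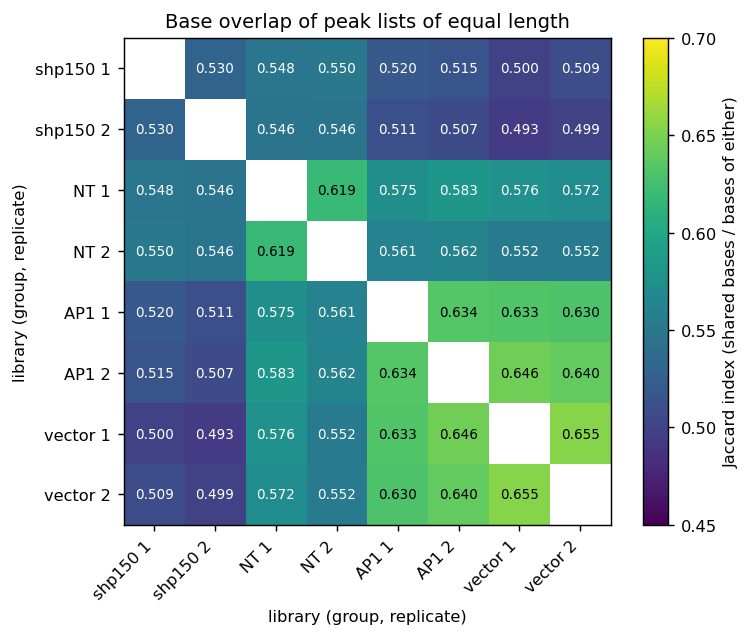
Each cell gives the Jaccard index, without a unit, of 2 peak lists of equal length, with libraries named by group and replicate on both axes. AP1 and vector libraries form a block of 0.630 to 0.655, while shp150 libraries reach at most 0.550, with NT.

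The calls of the 4 control libraries divided the hairpin-only regions. The largest class with undivided controls repeated the difference between the controls: both NT libraries and no vector library called 870 of the 2590 (33.6%, with an exact 95% interval of 31.8 to 35.4). Only 5.01% of all 61208 regions had such control calls. Intervals on shares of regions cover counting error only, treat neighbouring regions as independent and say nothing of the spread between cultures. A class of 445 regions (17.2%, 15.7 to 18.7) was called in none of the 4 controls, so that the hairpin cells stood apart from both references. Over all regions this share was 15.5%, close to that of the hairpin-only set. Just 128 regions (4.94%, 4.14 to 5.85) were called in all 4 controls and thus not kept in the c-JUN and c-FOS cells alone, against 45.3% of all regions. Only 19 of these 128 had no peak in either full AP1 list, so most had an AP1 peak below the length limit. In 53 regions (2.05%) the hairpin cells had a region that NT lacked while the c-JUN and c-FOS cells lacked one that vector had. The remaining 1094 (42.2%) had a control pair in which 1 library called the region and the other did not, against 29.2% of all regions.

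The AP-1-only regions divided in a similar way, with more that were missing from the opposite cells. Here 824 of 3411 (24.2%, 22.7 to 25.6) were called in both vector and neither NT library, against 4.98% of all regions. A further 496 (14.5%, 13.4 to 15.8) were called in all 4 controls and in no hairpin library, and 473 of these had no peak in either full shp150 list. That is more regions than the 128 of the reverse kind, and the hairpin libraries were also those with the shortest full lists and the least covered sequence. In none of the 4 controls were 322 regions called (9.44%, 8.48 to 10.5), a smaller share than the 15.5% of all regions. The c-JUN and c-FOS cells departed from vector and the hairpin cells from NT at 64 regions (1.88%). The controls were divided at 1705 (49.99%), against 29.2% of all regions.

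**Figure D3:**
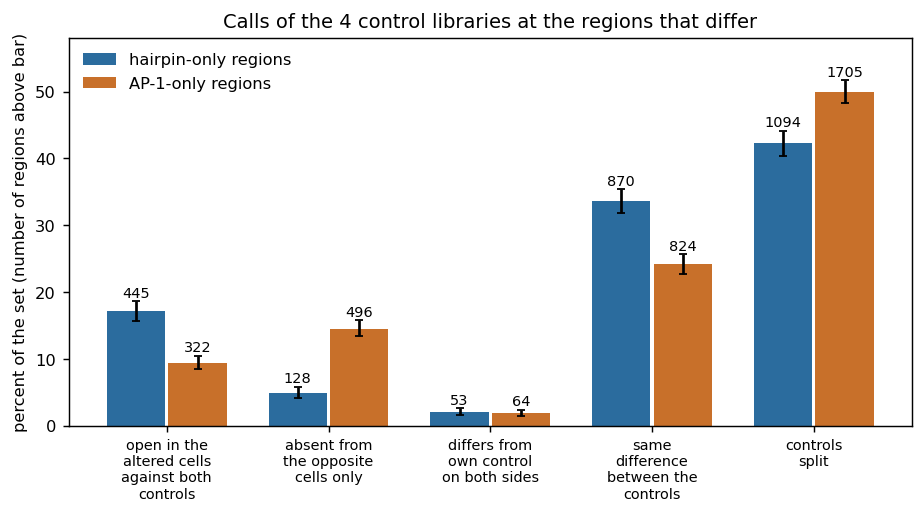
The bars give the percent of hairpin-only and of AP-1-only regions in each class of control calls, with exact 95% binomial intervals and the number of regions above. The class in which the controls differ in the same way holds 870 and 824 regions, against 445 and 322 in which the altered cells stand apart from both controls.

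Taken singly, the NT libraries called 65.1% and 63.9% of all 61208 regions and the vector libraries 65.5% and 65.3% (55.4% and 57.5% in both of a pair). Of the hairpin-only regions, the NT libraries called 64.2% and 60.2% and the vector libraries 19% and 21%. Of the AP-1-only regions, the vector libraries called 71.8% and 70.1% and the NT libraries 37.2% and 35.9%. The shares of NT among the hairpin-only regions were thus slightly below those of all regions and the shares of vector far below, while among the AP-1-only regions vector lay somewhat above and NT below. In either set both libraries of the own control lay above both libraries of the other control, by far more than replicates of a control differed.

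Absence from a shortened list does not mean that no peak was found. Of the 2590 hairpin-only regions, 1511 (58.3%) had no peak in either full AP1 list, 795 (30.7%) had a weaker peak in 1 of them and 284 (11.0%) in both. The shp150 lists lost few peaks or none, and 3312 of the 3411 AP-1-only regions (97.1%) had no peak in either full shp150 list. These figures are not symmetric by construction, since the AP1 lists were cut further. Members of both sets were narrow and ranked low, which follows in part from the rule. The same scores set the length limit, so regions kept in 1 group and not in the other tend to lie near it. The median width was 366 bp for hairpin-only and 423 bp for AP-1-only regions, against 699 bp for regions called in all 4 libraries. The latter join peaks of 4 lists and the former those of 2, which by itself widens the latter. The median rank of the hairpin-only regions was 30434.5 and 30054.5 in the 2 shp150 lists, and that of the AP-1-only regions 30762 and 31404 in the AP1 lists, out of 42898, whereas the regions called in all 4 libraries had medians between 14001 and 14093. In the classes found in none of the controls the ranks were lower still, with medians of 34086 and 34663 for the hairpin-only and 36366.5 and 36833.5 for the AP-1-only regions. Those regions also had to be missing from the 4 control lists, and how far such ranks go beyond the rule was not tested.

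Individual regions show what these classes look like. Regions were named by the smaller of the scores in the 2 libraries that call them. Scores of different lists need not share a scale, so ranks in the lists of equal length are given where libraries are compared. The files carry no gene names, and no annotation of hg19 was used here, so regions are given by position and not assigned to genes, exons or introns. Among the 10 best hairpin-only regions, 6 were of the class in which the controls differ alike and in 4 the controls were split. The best of them, 603 bp on chromosome 8, scored 20.5 and 17.1 in shp150 and 26.1 and 18.8 in NT. In the vector lists it had peaks of 5.94 and 5.66, below the length limit, and in the AP1 lists no peak and a peak of 5.67. Next came chr20:5345536-5346082, with scores of 17.0 and 17.7 in shp150 and 27.9 and 14.1 in NT, no peak in either vector list and a peak of 4.35 in 1 AP1 list. At chr7:41068519-41069078 the shp150 scores were 15.8 and 16.6 and the NT scores 26.5 and 22, with no peak in vector and 1 of 6.04 in AP1. These 3 regions ranked between 2595 and 5512 in the shp150 lists and between 4303 and 13915 in the NT lists, and were not kept in any AP1 or vector list. The region on chromosome 20 had peaks of 10.1 and 16 in the full vemurafenib-resistant 451Lu lists, against no peak and 5.59 in the parental lists. At equal length 1 resistant list kept it, at rank 40455, and no parental list did. It lay in an H3K27ac peak of resistant but not of parental cells. The region on chromosome 8 ranked 30687 and 23095 in resistant cells and 38524 in the 1 parental list that kept it. The region on chromosome 7 was kept in no parental or resistant list. Neither of these lay in an H3K27ac peak of parental or resistant cells.

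The hairpin-only regions found in no control ranked lower. The best, chr2:149584384-149584683, scored 9.07 and 10.4 in shp150 (ranks 17113 and 13437), had no peak in any NT or vector list and 1 of 5.21 in AP1. It was also kept in the lists of parental cells, at ranks 18715 and 24393, and in those of vector_NT cells, labelled vector and NT control, at ranks 16769 and 19724. At chr2:32206018-32206294 the shp150 scores were 8.90 and 9.16, with no peak in AP1 or NT and 1 of 4.79 in vector. Both parental, both vector_NT and both resistant lists of equal length kept this region, at ranks of 25186 to 37697. At chr5:138559082-138559624 the shp150 scores were 8.53 and 8.65, with no peak in AP1, a single peak of 5.49 in NT and peaks of 3.32 and 4.07 in vector. No parental, vector_NT, resistant or shp150_AP1 list of equal length kept it. Of the regions not kept in the c-JUN and c-FOS cells alone, the best, chr7:152547619-152548004, scored 11.6 and 14.7 in shp150, 10.2 and 6.87 in NT and 7.79 and 7.99 in vector. Its AP1 peaks of 4.19 and 5.67 fell below the length limit. The next, chr1:3229626-3230037, scored 11.2 and 15.5 in shp150 and had 1 AP1 peak of 6.09, also below the limit. The third, chr5:45385775-45386218 scored 11.5 and 10.7 in shp150, 9.89 and 11.4 in NT and 9.66 and 7.30 in vector, and was one of the few of its class with no peak in either full AP1 list. The best region at which both altered groups departed from their own control was chr11:116658741-116659006. It scored 8.53 and 9.94 in shp150 against 1 peak of 4.97 in NT, and had no peak in AP1 against 11.0 and 6.39 in vector.

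Most of the best AP-1-only regions were missing from the hairpin cells alone. Among the first 10, 6 were of that class, 1 was a difference between the controls and in 3 the controls were split. The first, chr12:104713773-104714211, scored 31.5 and 34.8 in AP1, 30.0 and 28.8 in vector and 14.5 and 15.3 in NT, and had no peak in either full shp150 list. It ranked 1873 and 1843 in the AP1 lists, 4253 and 3830 in the vector lists and 17793 and 11804 in the NT lists. Every other 451Lu group had it too. It ranked 590 and 621 in parental, 286 and 297 in vector_NT and 1242 and 1608 in resistant cells. In shp150_AP1 cells, which carry the hairpin together with c-JUN and c-FOS, it ranked 11512 and 6232. At chr2:77711164-77711589 the scores were 24.3 and 27.3 in AP1, 36.8 and 25 in vector and 13.9 and 10.9 in NT, with no peak in shp150. At chr15:91191429-91192098 they were 23.9 and 24.5 in AP1, 20.7 and 23.9 in vector and 7.77 and 5.62 in NT, again with none in shp150. At each of these 3 regions both NT libraries ranked the peak below both vector and both AP1 libraries. There the hairpin cells lacked a peak that stood lower in their own control than in the vector cells. This did not hold at chr3:63961435-63961819, of the same class and among the first 10. In 1 NT library it ranked 9048, above both vector libraries at 10627 and 26874. The best region that differed between the controls in the same way, chr3:66618844-66619639, scored 23.5 and 22.8 in AP1 and 23.8 and 30.8 in vector and had no peak in any NT or shp150 list.

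Among the AP-1-only regions found in no control, chr1:59248012-59248601 stood first, with scores of 18.8 and 11.6 in AP1 (ranks 8723 and 23411). It had no peak in either list of shp150, NT, vector, vector_NT, parental or resistant cells, but scored 26.4 and 26.6 in shp150_AP1 cells. It was thus listed in every library that carries the c-JUN and c-FOS constructs and in no other 451Lu library. Whether reads of the constructs themselves contribute to this peak was not tested. The next, chr3:193787431-193787896, scored 11.0 and 13.1 in AP1 and had peaks of 4.20 and 4.46 in vector, and unlike the first it was present in parental cells, with scores of 29.1 and 18.6. At chr1:76499543-76499916 the AP1 scores were 10.6 and 10.7, with peaks of 5.25 and 4.69 in NT and 1 of 5.76 in vector, all below the length limit. Both parental and both vector_NT lists of equal length kept this region, at ranks of 30732 to 38161.

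**Figure D4:**
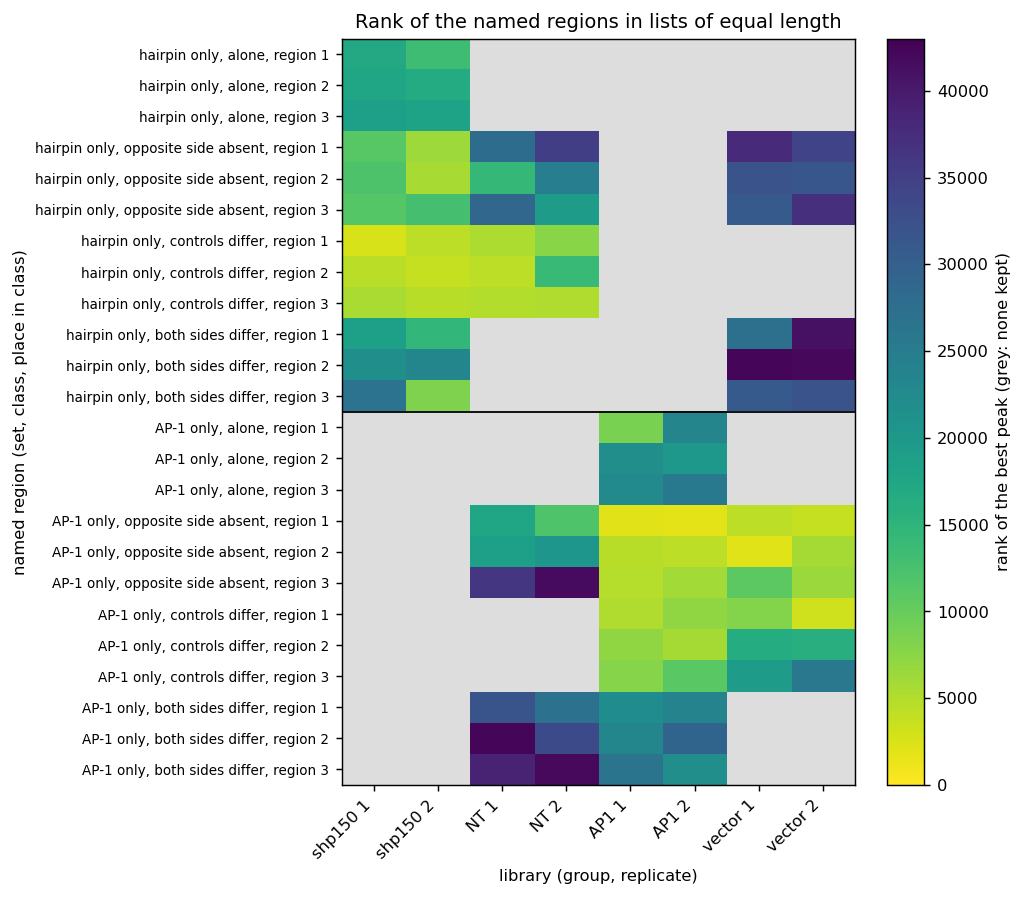
Colour gives the rank of the best peak of the 3 best regions of each class (rows) in each library (columns), in lists of 42898 peaks, with grey where no kept peak was present. The upper rows are hairpin-only and the lower rows AP-1-only regions. In the rows where the controls differ, the NT columns follow shp150 and the vector columns follow AP1, as the definition of that class requires.

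The weaker reading of "found in no control" was tightened to no peak at all in any full list of the opposite cells or the controls. This left 154 of the 445 hairpin-only regions (34.6%) and 71 of the 322 AP-1-only regions (22%). Of the 71, 57 (80.3%) were called in both full lists of parental, of vector_NT and of shp150_AP1 cells, counted for each group in turn, and 45 (63.4%) in both of resistant cells. Of all 61208 regions these lists called 86.5%, 86.3%, 87.0% and 86.3%, in the same order, so the 71 regions lay below the rate of any region, as did the 154 by a wider margin. Of the 154, 61 (39.6%) were called in both shp150_AP1 lists, 47 (30.5%) in both vector_NT lists, 47 in both parental and 44 (28.6%) in both resistant lists. Also without any peak in parental and vector_NT cells were 61 of the 154 hairpin-only and 2 of the 71 AP-1-only regions. Of those 61, both shp150_AP1 libraries called 7, and both resistant libraries called 7. Of those 2, both shp150_AP1 libraries called 1 and the resistant libraries none in both. That 1 is chr1:59248012-59248601, named above, at which a contribution of reads of the constructs was not tested.

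Other 451Lu groups, whose libraries the choice of regions did not use, had the 2 sets at different rates. Their full lists held 79670 to 94550 peaks. In full lists both parental libraries called 54.7% of the hairpin-only and 96.5% of the AP-1-only regions, against 86.5% of all 61208. Both vector_NT libraries called 55.6% and 96.2%, against 86.3%. In resistant cells the shares were 62.4% and 93.4%, against 86.3%, and in shp150_AP1 cells 68.8% and 92.1%, against 87.0%. The hairpin-only shares thus lay under those of all regions in all 4 groups, and the AP-1-only shares above them. Since these lists were far longer than the others, they were also cut to the same 42898 peaks, a setting added after the data were seen. This moved every share of the 2 sets by more than 1.5 times. The parental shares were then 12.2% and 64.0%, against 60.4% of all regions, and the vector_NT shares 13.4% and 61.3%, against 59.8%. In resistant cells they were 16.7% and 51.3%, against 56.2%, and in shp150_AP1 cells 20.3% and 49.5%, against 58.9%. The hairpin-only shares stayed under those of all regions, but the AP-1-only shares now lay slightly above them in parental and vector_NT and below them in resistant and shp150_AP1 cells. For the hairpin-only regions shp150_AP1 was highest at either length, resistant next and vector_NT and parental lowest. The 2 sets were not drawn to the same depth of list. The shp150 lists kept peaks down to scores of 3.03 and 2.02, and the AP1 lists down to 5.28 and 6.17. All regions also include the 26471 called in all 4 libraries. How far these shares follow the strength of the peaks was not tested.

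By class, the widest gap between the sets lay where the controls differed alike, except in full lists of shp150_AP1 cells. There it lay among the regions found in no control. Of the 870 such hairpin-only regions, both full parental lists called 40.8%, vector_NT 42.6%, resistant 58.5% and shp150_AP1 67.1%. Of the 824 such AP-1-only regions the shares were 98.4%, 98.4%, 96.1% and 94.1%. At equal length they were 4.48%, 6.90%, 15.6% and 18.2% for the hairpin-only and 79.4%, 74.0%, 64.1% and 54.9% for the AP-1-only regions, in the same order of groups. Of the regions found in no control, both shp150_AP1 libraries, which carry both alterations, called 53.0% of the hairpin-only and 82.9% of the AP-1-only ones in full lists, and 10.1% and 21.7% at equal length. Parental cells, with neither alteration, showed gaps in the same direction, 41.8% and 90.4% in full lists and 4.94% and 32.0% at equal length. So did vector_NT cells, at 40.7% and 89.4% in full lists and 4.72% and 30.4% at equal length. Over all regions the shares of shp150_AP1, parental and vector_NT cells were 87.0%, 86.5% and 86.3% in full lists. At equal length they were 58.9%, 60.4% and 59.8%. Regions not kept in the c-JUN and c-FOS cells alone were called by both parental libraries in 96.1% of cases in full lists, above the share of all regions, and in 47.7% at equal length, below it. Those missing from the hairpin cells alone were called in 97.8% and 80.2%, above it at either length.

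**Figure D5:**
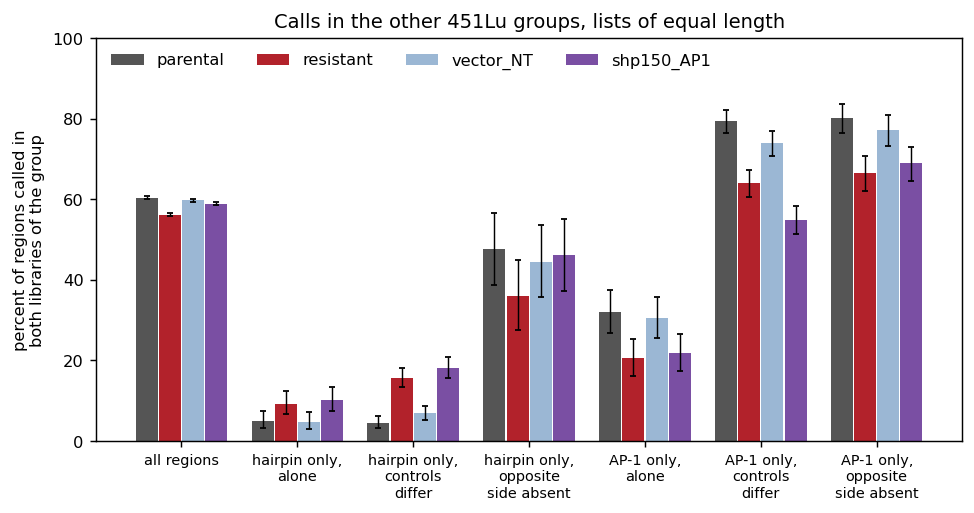
The bars give the percent of regions called in both libraries of parental, resistant, vector_NT and shp150_AP1 cells, in lists cut to 42898 peaks (a setting added after the data were seen), with exact 95% binomial intervals. At this length all 3 hairpin-only classes lie under the level of all regions, at 58.9% in shp150_AP1 and 60.4% in parental cells, while the AP-1-only regions missing from hairpin cells lie above it, at 66.5% to 80.2%.

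H3K27ac, a mark of active promoters and enhancers, was compared at these regions in parental and resistant 451Lu cells. The labels list 2 libraries per group, of which the list of replicate 1 was used in each (32304 and 51710 peaks). The second libraries were not analysed here, so these values have no replicate check. Of all regions, 18.9% overlapped a parental and 21.6% a resistant peak. The hairpin-only regions overlapped less, with 4.59% and 8.69%, and so did the AP-1-only regions, with 9.65% and 8.74%. Of the hairpin-only regions, 133 were marked in resistant cells only and 27 in parental cells only, while over all regions the numbers were 4386 and 2745. Of the AP-1-only regions, 111 were marked in resistant and 142 in parental cells only. With the H3K27ac lists cut to the same length the hairpin-only numbers were 89 and 30 and the AP-1-only numbers 72 and 165, against 2704 and 3558 of all regions, so each set kept its direction while the direction over all regions changed. The regions at which the controls differ alike held much of this: 68 hairpin-only regions of that class were marked in resistant cells only and 2 in parental cells only, and of the AP-1-only class 12 and 49. In the classes found in no control the numbers were small, 10 and 4 for hairpin-only and 10 and 7 for AP-1-only regions.

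H3K9me3, a mark of heterochromatin that CAF-1 is known to help maintain, was listed as broad islands in 2 libraries each of parental, resistant, vector_NT and shp150_AP1 cells. Islands with a deposited false discovery rate of at most 0.01 were used. Of the hairpin-only regions, 10.5% and 10.6% lay in islands of parental cells and 10.8% and 11.2% in those of vector_NT cells. The shares were 7.22% and 6.95% in resistant and 7.03% and 8.19% in shp150_AP1 cells. Over all regions the parental shares were 5.17% and 5.06% and the shp150_AP1 shares 3.71% and 4.51%. The AP-1-only regions lay close to these, at 4.43% and 4.54% in parental and 3.14% and 4.28% in shp150_AP1 cells. In each of these 8 libraries the hairpin-only share lay above that of all regions, and in each the AP-1-only share lay below it. With every listed island, whatever its false discovery rate, the hairpin-only shares again lay above in all 8 libraries, but the AP-1-only share was level with or just above that of all regions in 2 of them (6.74% against 6.65% in resistant replicate 2 and 6.19% against 6.14% in shp150_AP1 replicate 2). The 870 regions shared with NT gave 13.3% and 12.1% in parental cells, above the value of the whole set. The 445 hairpin-only regions found in no control gave 9.66% and 9.44%, below the whole set but above all regions. Islands covered 299.9 and 309.9 Mb in parental, 366 and 352 Mb in vector_NT, 236 and 224 Mb in resistant and 241 and 286 Mb in shp150_AP1 cells, so the groups with lower shares also had less of the genome in islands. H3K9me3 of cells with the hairpin alone was not analysed here.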

How the data were processed

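Peak lists of 8 ATAC-seq libraries of 451Lu cells (2 each of shp150, AP1, NT and vector) were compared, with 8 other 451Lu ATAC-seq, 2 H3K27ac and 8 H3K9me3 lists as further readouts. The submitters' processing notes name the build hg19 and, with no role, the aligners Bowtie2 and STAR (2.5.3), the callers MACS2 and SICER, and Picard and deepTools. The sources used here do not give duplicate removal, Tn5 shift or thresholds. The deposited ATAC-seq and H3K27ac lists give a score per peak, called by the authors per library, whose definition is not stated. The deposited H3K9me3 islands carry a false discovery rate, read as an adjusted p-value, and those at 0.01 or below were kept. Lists carry no depth, so no count model or interval on depth was possible.

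Lists were cut to the 42898 best-scoring peaks, merged, and called at 1 bp of overlap (Python 3.11.15, numpy 2.4.6). Classes follow calls in the 4 controls. No test was made across regions. Exact permutation tests (scipy 1.17.1) served for values per library, and intervals are exact (Clopper-Pearson) at 95%. The code was tested on simulated lists with planted classes. Named regions were the 10 with the highest smaller score in each set and the 3 in each class with undivided controls. The groups, the classes and this rule were chosen with earlier results of these data known. Gene lists, markers and motifs were not used, since no genome or annotation of hg19 was used here. List length, overlap, score threshold, merging and single libraries were varied, as were the reference lists. Another 4 settings were added after the data were seen: full lists for peaks that must be absent, other lists cut to equal length, unfiltered islands and the 10000 best peaks. Lists of WM983B cells were not used.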

Additional observations from a re-analysis of the deposited data

How the results depend on the processing

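The number of hairpin-only and AP-1-only regions followed the length of the lists. Full lists gave 1593 hairpin-only and 6608 AP-1-only regions, the 20000 best peaks 1556 and 1808, a score of at least 5 with no equal length 981 and 7059, and the 10000 best peaks 949 and 1122. Hairpin-only regions with no peak in the full AP1 lists numbered 1511. When a call required a library's peaks to cover 50% of a region, AP-1-only regions numbered 6037 and hairpin-only regions 2546. Under that setting a library with a narrower peak counted as not calling the region. NT against vector gave 2090 and 2104 regions with the 20000 best peaks. AP-1-only regions outnumbered hairpin-only regions under each of these settings, and NT against vector exceeded the direct comparison in total with the 20000 best peaks, the 10000 best (1194 and 1292) and full lists (4077 and 4352), but not at 50% coverage (3871 and 4426 against 2546 and 6037) or at a score of at least 5 (3548 and 4030).

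Classes of the hairpin-only regions moved with them. Those found in no control numbered 174 with full lists, 277 with the 20000 best peaks, 71 at a score of at least 5, 175 with uncut reference lists and 154 where absence meant no peak in the full lists. Those not kept in the c-JUN and c-FOS cells alone numbered 66 at a score of at least 5, 469 with uncut reference lists and 19 with absence from full lists. Those with the difference of the controls numbered 505, 433 and 429 with the 20000 best peaks, a score of at least 5 and absence from full lists. Those differing from the own control on both sides numbered 27 with full lists, 31 with the 20000 best, 10 at a score of at least 5 and 10 with absence from full lists. Those with split controls numbered 636, 656 and 401 with full lists, the 20000 best and a score of at least 5.

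Of the AP-1-only classes, those found in no control numbered 187 with the 20000 best peaks, 71 with uncut reference lists and 71 with absence from full lists. Those missing from the hairpin cells alone numbered 1732 with full lists, 222 with the 20000 best, 1379 at 50% coverage, 1960 at a score of at least 5 and 1179 with uncut reference lists. Those with the difference of the controls numbered 1265, 503, 1320, 1317 and 444 with full lists, the 20000 best, 50% coverage, a score of at least 5 and absence from full lists. Those differing on both sides numbered 98, 35, 100, 111, 26 and 12 with full lists, the 20000 best, 50% coverage, a score of at least 5, uncut reference lists and absence from full lists. Those with split controls numbered 3187, 861, 2822 and 3343 with full lists, the 20000 best, 50% coverage and a score of at least 5. Longer lists leave fewer regions without a peak by construction; beyond this the cause was not tested.

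Leaving out a library lets 1 library call its group, which loosens the rule. Without either shp150 library the hairpin-only regions (7588 and 7145) outnumbered the AP-1-only regions (6225 and 5932), and without either AP1 library they did not (4018 and 4081 against 7165 and 7086). The controls no longer exceeded the direct comparison in total without any one shp150 or AP1 library (ratio 0.513 to 0.635). Over all single omissions the counts ranged from 2590 to 7588 (hairpin-only), 3411 to 7165 (AP-1-only), 3577 to 7296 (NT only) and 3514 to 6962 (vector only). The hairpin-only classes ranged from 498 to 3150 (no control), 170 to 544 (opposite side missing), 985 to 1293 (controls differ), 95 to 145 (both sides) and 502 to 2801 (split). The AP-1-only classes ranged from 378 to 1702, 559 to 1668, 1051 to 1227, 102 to 161 and 930 to 3440 in the same order. Merging at 200 bp or over all 8 libraries moved no count of the 2 sets by more than 1.5 times, and cutting to the shortest of the 4 lists was identical to the values reported. No paired analysis was possible because the results are counts of calls and come from no model fit. Sequencing depth, which the lists do not carry, limits what an absent peak can show.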

Other observations

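The regions that separate the controls share members with those that separate the altered cells, and their other readouts were as follows. Of the 3577 regions called in both NT and neither vector library, 1631 (45.6%) were called in both shp150 and 457 (12.8%) in both AP1 libraries, and 2195 (61.4%) in neither AP1 library. Of the 3514 vector-only regions, 1630 (46.4%) were called in both AP1 and 421 (12%) in both shp150 libraries, and 2061 (58.7%) in neither shp150 library. Over all 59687 regions of this merge, both shp150 libraries called 52.4% and both AP1 libraries 58%, so each set lay below that level in either altered group, further below in the altered cells not paired with that control. In equal-length lists both parental libraries called 11.5% of the NT-only and 65.0% of the vector-only regions, and both resistant libraries 19.4% and 53.7%, against 61.8% and 57.4% of all regions. H3K27ac marked 274 NT-only regions in resistant cells only and 35 in parental cells only, and 81 and 176 vector-only regions (185 and 40, and 54 and 193, with H3K27ac lists of equal length), while of all regions it marked 4485 in resistant and 2862 in parental cells only (2763 and 3672).

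Neither set gathered on 1 chromosome. The hairpin-only share of the regions of a chromosome ran from 2.02% on chromosome 19 to 5.27% on chromosome 4, and the AP-1-only share from 4.56% on chromosome 7 to 7.32% on chromosome 18. No window of 1 Mb held more than 5 hairpin-only regions. Up to 8 AP-1-only regions fell in 1 window, at 72000001 to 73000000 on chromosome 3 (of 62 regions there), at 110000001 to 111000000 on chromosome 12 (of 47) and at 153000001 to 154000000 on chromosome X (of 58).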
